A study of Mus musculus with 85 samples.

Results

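The cytochrome P450 genes of families 1 to 3 were followed through liver cells and cultured macrophages of 3 inbred mouse strains. Of 23608 genes in the expression tables, 58 had a symbol made of Cyp, a family digit from 1 to 3, a subfamily letter and a gene number, with pseudogenes left out. Of these, 44 were kept because their mean level reached at least 1 TPM (a normalized transcript level that takes gene length into account) in at least 1 group of cell type, strain and treatment. A total of 15161 genes reached the same limit. The members were thus chosen by their TPM levels, which are given below as a description. Nearest above the limit were Cyp2t4, Cyp3a44 and Cyp2b13, whose highest group means were 1.56, 1.68 and 2.09 TPM. Nearest below it, and not described further, were Cyp2d11, Cyp2d12 and Cyp2j8 with highest group means of 0.946, 0.484 and 0.384 TPM, and 14 symbols in all fell short.

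The RNA-seq libraries (85 in total) came from males of the wild-type inbred strains A/J, BALB/cJ or C57BL/6J, and from their cells in culture or in other hosts, to ask how natural genetic variation shapes transcription in the liver. Untreated parental groups were hepatocytes (2 libraries for A/J, 2 for BALB/cJ, 3 for C57BL/6J), liver sinusoidal endothelial cells or LSECs (4 per strain) and hepatic stellate cells (4 for A/J, 4 for BALB/cJ, 3 for C57BL/6J). Kupffer cells, the resident liver macrophages, came from mice 2 h after 0.1 mg per kg lipopolysaccharide (LPS; 2 libraries for BALB/cJ, 2 for C57BL/6J), from mice fed the steatohepatitis-inducing AMLN diet for 30 weeks (4 for A/J, 3 for BALB/cJ, 4 for C57BL/6J) and from untreated mice (2 per strain). Further groups were donor Kupffer cells from immunodeficient NSG hosts engrafted with blood stem cells (3 libraries each of BALB/cJ, C57BL/6J and CB6F1/J donors), Kupffer cells of CB6F1/J hybrids, the first-generation cross of BALB/cJ and C57BL/6J (5 after LPS and 4 untreated), and marrow-derived macrophages or BMDMs given 100 ng per ml of the lipid A Kdo2-lipid A (KLA) or PBS (2 libraries per treatment for each strain and the hybrid). Diet-fed mice could be set only against Kupffer cells of untreated mice, which were younger by the study's methods, so diet and age cannot be told apart. By the same methods, mice of the LPS experiment were fasted overnight, and the labels do not say whether the untreated mice were. Control-diet libraries were not analysed here, and the host liver around engrafted cells was neither donor strain. The labels do not say that libraries of a group came from separate animals, so p-values measure the spread between these libraries, which may in part be technical.

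P450 enzymes are heme proteins of the endoplasmic reticulum that insert an oxygen atom into drugs, toxins, steroids, retinoids and fatty acids, with electrons passed on by the reductase Por. Hepatocytes hold most of the body's P450 protein, and many of the genes are expressed along the liver lobule toward the central vein under the receptors CAR (Nr1i3), PXR (Nr1i2) and the dioxin receptor AHR. In rodents the Cyp2 and Cyp3 subfamilies grew by repeated gene duplication, and several copies are transcribed mainly in 1 sex.

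The 44 members lay on 8 chromosomes of the mouse genome (RefSeq, GRCm38.p6), with 13 on chromosome 19 and 13 on chromosome 7. All 13 Cyp2c members lay on chromosome 19 between bases 39006940 and 44029256, the 6 Cyp2d members within 424 kb of chromosome 15, and the 5 Cyp3a members on chromosome 5. The RefSeq promoter table held 38 of the 44, and Cyp2g1, Cyp2c23, Cyp2d22, Cyp2d13, Cyp2u1 and Cyp2c54 are named only. The promoters of a pair of Cyp2a copies are shown because their letters were nearly the same while their levels were not. Cyp2a4 (chr7:26306942-26307241, plus strand) differed between strains in hepatocytes, whereas no difference was called for its copy Cyp2a5 (chr7:26835089-26835388, plus strand). Each window runs from 250 bases before to 50 bases after the annotated start, 5′ to 3′, in the reference strain C57BL/6J, and capitals mark bases that mismatched or had no partner in the alignment of the pair.
Cyp2a4: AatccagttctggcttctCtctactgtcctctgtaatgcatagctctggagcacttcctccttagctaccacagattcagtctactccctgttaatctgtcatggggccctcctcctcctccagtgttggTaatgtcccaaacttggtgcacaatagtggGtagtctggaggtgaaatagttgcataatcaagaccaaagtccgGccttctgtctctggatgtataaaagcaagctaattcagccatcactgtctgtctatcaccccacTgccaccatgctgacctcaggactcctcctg
Cyp2a5: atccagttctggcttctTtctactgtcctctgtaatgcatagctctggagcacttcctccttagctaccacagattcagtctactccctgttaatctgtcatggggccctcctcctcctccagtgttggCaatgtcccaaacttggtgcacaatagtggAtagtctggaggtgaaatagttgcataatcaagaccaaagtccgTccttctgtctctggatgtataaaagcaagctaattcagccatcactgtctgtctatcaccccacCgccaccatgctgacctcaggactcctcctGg
Of 301 aligned columns, 294 were identical (97.7%), 5 were mismatches and 2 were gaps. As a pair that moved together, Cyp2c37 (chr19:39992174-39992473, plus strand) and Cyp2c50 (chr19:40089429-40089728, plus strand) were aligned in the same way.
Cyp2c37: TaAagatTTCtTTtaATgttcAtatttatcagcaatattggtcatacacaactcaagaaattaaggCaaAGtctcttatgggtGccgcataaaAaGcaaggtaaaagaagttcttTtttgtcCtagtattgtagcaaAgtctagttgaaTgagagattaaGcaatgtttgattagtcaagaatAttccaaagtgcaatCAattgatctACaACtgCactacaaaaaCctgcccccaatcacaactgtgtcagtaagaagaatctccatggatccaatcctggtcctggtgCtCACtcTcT
Cyp2c50: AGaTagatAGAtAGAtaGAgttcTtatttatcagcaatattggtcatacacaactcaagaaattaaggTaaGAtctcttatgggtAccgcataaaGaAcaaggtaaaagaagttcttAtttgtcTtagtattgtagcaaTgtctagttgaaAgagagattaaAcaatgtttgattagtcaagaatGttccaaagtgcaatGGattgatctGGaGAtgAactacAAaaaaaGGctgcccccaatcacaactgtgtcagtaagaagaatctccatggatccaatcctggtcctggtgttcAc
Here 264 of 305 columns were identical (86.6%), with 31 mismatches and 10 gap columns.

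Short motifs were searched on both strands of the same windows. The TATA box TATAAA was found in 22 of 40 member promoters, against 13.6% of all 32851 promoters in the table. The HNF4A motif CAAAGTCCA was found in 6 of 40 (Cyp2c40, Cyp2c67, Cyp2c68, Cyp2c69, Cyp2c70 and Cyp3a11), against 0.475% of all promoters. The nuclear receptor motif AGGTCA was in 16 member promoters (16.3% of all), the HNF1 motif GTTAAT in 6 (7.10% of all) and the AHR core GCGTG in 6 (32.4% of all). The STAT motif TTCNNNGAA (8.30% of all) and the C/EBP motif TTGCGCAA (0.183% of all) were in 0 of 40. Cyp2a4 and Cyp2a5 each held the TATA box, the HNF1 motif and the nuclear receptor motif, while Cyp2c37 and Cyp2c50 held none of the 7 motifs. Promoters of gene copies are not independent of each other. Cyp2c40 was the gene with the most transcript sequence in common with Cyp2c67, Cyp2c68 and Cyp2c69. Cyp3a25 entered with overlapping windows from bases 146009568 and 146009569, both with AGGTCA. The shares of all promoters are thus given only for orientation. These matches describe the letters in the window and are not measured binding sites.

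Because the copies are alike, reads can be shared between them. Of 43 members with transcripts in the reference, 20 had more than 10% of their 50-base windows in common with another gene, and 9 had none. The share was 60.3% for Cyp2c40, 54.3% for Cyp2c69, 52.8% for Cyp2c67, 38.0% for Cyp2a4 and 30.1% for Cyp2c37, so levels of these genes are uncertain. It was 0% for Cyp2c23, Cyp2c70, Cyp2f2, Cyp3a13, Cyp2j9 and Cyp2r1, and 12.05% for Cyp2c39.

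Hepatocyte libraries held 9.19 to 21.4 M counts, of which 193560 to 487878 fell on members. The members took 2.35 to 3.26% of the summed TPM in these libraries. Alb, the albumin gene that defines hepatocytes, was present at 54391 to 102535 TPM, and the 17 hepatocyte markers together at 108957 to 166523 TPM. The summed LSEC markers reached 20.2 to 61.9 TPM in hepatocyte libraries, stellate markers 34.6 to 110.2 TPM and Kupffer cell markers 30.8 to 86.1 TPM, and 3 of them were lower in A/J than BALB/cJ hepatocytes (Clec4g, Dcn and Ecm1). In A/J against C57BL/6J hepatocytes Clec4g was lower as well, and the red-cell gene Hba-a1 was higher. The part of these other cells in the strain differences below was not tested. The remaining labels fitted their markers, with summed LSEC markers at 7571 to 10174 TPM in LSECs, stellate markers at 15758 to 33932 TPM in stellate cells and Kupffer cell markers at 24559 to 28997 TPM in untreated Kupffer cells, although stellate libraries also held 354 to 11363 TPM of Kupffer cell markers. In bulk RNA, fewer cells of a type and less RNA per cell cannot be told apart.

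Of the 44 members, 39 had their highest group mean in hepatocytes (15 in the A/J group, 6 in BALB/cJ, 18 in C57BL/6J), and 5 had it elsewhere. In at least 1 hepatocyte group 20 members reached 100 TPM. Cyp2e1, which oxidizes ethanol and acetaminophen, had the highest mean over the strains, with 4715 and 8500.0 TPM in A/J, 3226 and 3636 TPM in BALB/cJ and 2916, 4732 and 7083 TPM in C57BL/6J. Libraries of the A/J and C57BL/6J strains spread widely and overlapped, and no pair of strains differed in the test (A/J minus BALB/cJ log2 difference 1.05 ± 0.38, SE, adjusted p = 0.127). Cyp3a11, the main hepatic Cyp3a enzyme of the mouse and a PXR target, had 2855 and 3242 TPM in A/J, 2795 and 2903 TPM in BALB/cJ and 2038, 3251 and 1463 TPM in C57BL/6J. Cyp2f2, the periportal enzyme that activates naphthalene in mouse lung and liver, had 1378 and 967 TPM in A/J, 1742 and 1707 TPM in BALB/cJ and 2070.2, 1509 and 1365 TPM in C57BL/6J. Neither gene was called between any pair of strains. The same held for Cyp2d9, the male-biased testosterone hydroxylase (781 ± 190.0 TPM in A/J, 978 ± 28.1 TPM in BALB/cJ and 982 ± 170.4 TPM in C57BL/6J; SD, n = 2, 2 and 3), and for Cyp2d26, Cyp2d10, Cyp2a12 and Cyp3a25. Cyp2d26 averaged 669 ± 50.0 TPM in A/J, 687 ± 12.8 TPM in BALB/cJ and 798 ± 155.0 TPM in C57BL/6J, and Cyp2d10 averaged 367 ± 9.51, 401 ± 22.9 and 424 ± 36.7 TPM in the same order. Cyp2a12 acts on bile acids, and it averaged 488 ± 63.4 TPM in A/J, 447 ± 9.06 TPM in BALB/cJ and 548 ± 159.6 TPM in C57BL/6J. Cyp3a25 means were 591 ± 38.3 TPM in A/J, 433 ± 68.2 TPM in BALB/cJ and 297 ± 104.9 TPM in C57BL/6J. The most abundant members were thus mostly those for which no strain difference was called, apart from Cyp2c29 and, short of the fold limit, Cyp2c70.

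Strain differences in hepatocytes were tested on the counts of all 7 libraries in 1 fit, with edgeR's quasi-likelihood test and Benjamini-Hochberg adjustment over all genes tested. A gene was called at an adjusted p below 0.05 with a log2 difference above 1 in size, and it entered the test with a mean above 8 TPM in at least 1 of the strains compared. A/J differed from BALB/cJ at 8 of the 33 members tested (7 higher in A/J and 1 lower), a share of 24.2%, against 5.06% of all 5672 genes (3.01% higher and 2.05% lower). A/J differed from C57BL/6J at 9 of 34 members (5 higher and 4 lower in A/J), or 26.5%, against 3.5% of 5507 genes (1.76% higher and 1.74% lower). BALB/cJ differed from C57BL/6J at 10 of 30 members (3 higher and 7 lower in BALB/cJ), or 33.3%, against 8.93% of 5731 genes (3.96% higher and 4.97% lower). The contrasts share libraries and so are not independent of each other. With 2 or 3 libraries a strain, libraries that did not overlap between strains were common. This held for 64.4, 36.2 and 58.1% of all genes tested in the 3 contrasts, and for 81.8, 52.9 and 56.7% of members. A lack of overlap alone thus says little. A member that entered only through the strain where it is high had to differ, and among the 27 members above 8 TPM in both strains of each contrast 4, 5 and 7 were called, against 2.66%, 1.8% and 4.81% of all genes above 8 TPM in both. At an unadjusted p below 0.05 the counts were 14, 16 and 16 members, with no share of all genes to set beside them.

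**Figure D1:**
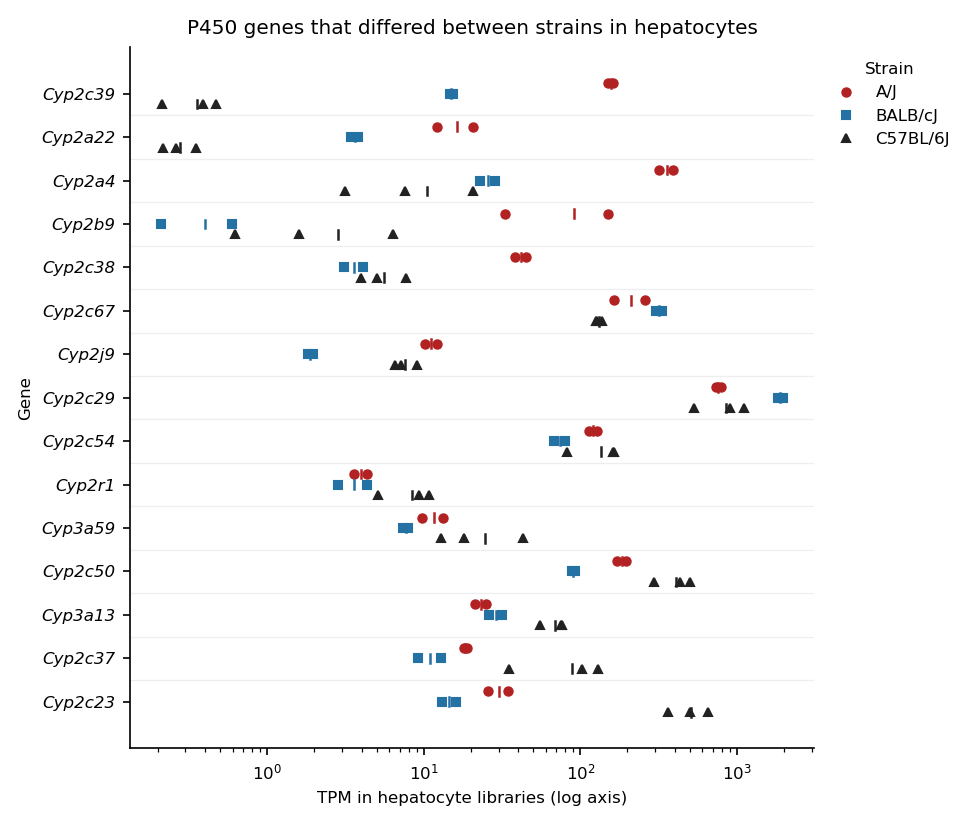
TPM of the 15 members called in at least 1 strain contrast, in each hepatocyte library (log axis; points are libraries, coloured by strain, and ticks are strain means). Cyp2c39 and Cyp2a22 fall in 3 separate steps with A/J highest and C57BL/6J lowest, whereas Cyp2c23 stands apart in C57BL/6J.

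**Figure D2:**
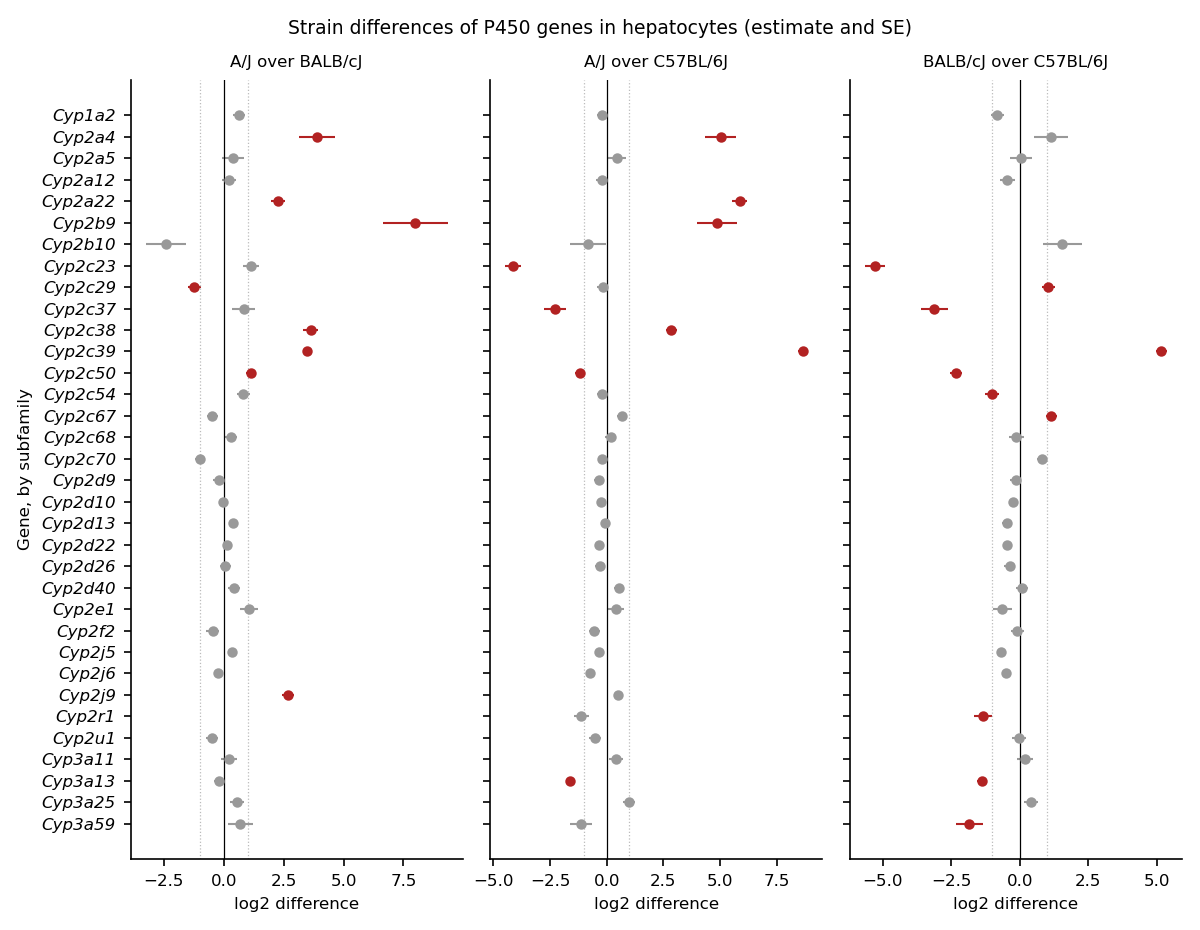
Log2 difference of each tested member (points, with bars for the standard error) in hepatocytes for A/J minus BALB/cJ, A/J minus C57BL/6J and BALB/cJ minus C57BL/6J, with called members in red and dotted lines at the fold limit. Most members lie between the dotted lines in each panel, with 8, 9 and 10 called.

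Large differences were seen in the Cyp2c subfamily, whose products metabolize arachidonic acid and retinoids. Cyp2c39, a retinoic acid hydroxylase, had 161 and 151 TPM in A/J, 14.7 and 15.3 TPM in BALB/cJ and 0.211, 0.468 and 0.389 TPM in C57BL/6J. The strains did not overlap, and the C57BL/6J libraries held only 3, 12 and 9 reads of it. The log2 difference was 8.65 ± 0.20 (± SE) between A/J and C57BL/6J (adjusted p = 6.39e-07), 3.48 ± 0.17 for A/J against BALB/cJ (adjusted p = 6.72e-05) and 5.17 ± 0.20 for BALB/cJ against C57BL/6J (adjusted p = 1.16e-05). Its close relative Cyp2c38 had 44.8 and 38.5 TPM in A/J, 4.10 and 3.08 TPM in BALB/cJ and 4.00, 7.69 and 5.03 TPM in C57BL/6J. It was high in A/J alone, with differences of 3.62 ± 0.30 from BALB/cJ (adjusted p = 0.000535) and 2.85 ± 0.25 from C57BL/6J (adjusted p = 0.000584). Cyp2c23, an arachidonic acid epoxygenase, had 34.5 and 25.6 TPM in A/J, 16.0 and 13.1 TPM in BALB/cJ and 656, 500.3 and 361 TPM in C57BL/6J. Here C57BL/6J stood above both other strains in every library, with differences of -4.13 ± 0.34 for A/J (adjusted p = 0.000430) and -5.28 ± 0.36 for BALB/cJ (adjusted p = 0.000149). The calls of these 3 genes were kept with any 1 library left out.

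Cyp2c37, Cyp2c50 and Cyp2c54, neighbouring arachidonic acid hydroxylases and epoxygenases, were lowest in BALB/cJ. Cyp2c37 had 18.8 and 18.0 TPM in A/J, 12.8 and 9.19 TPM in BALB/cJ and 35.1, 102 and 129 TPM in C57BL/6J. Cyp2c50 had 171 and 196 TPM in A/J, 92.6 and 87.8 TPM in BALB/cJ and 296, 435 and 502 TPM in C57BL/6J. Both showed the same order of strains, without overlap. Against C57BL/6J, Cyp2c37 was lower in BALB/cJ by a log2 difference of -3.12 ± 0.49 (adjusted p = 0.00548) and in A/J by -2.28 ± 0.47 (adjusted p = 0.0343). Cyp2c50 was lower than in C57BL/6J in BALB/cJ (-2.31 ± 0.21, adjusted p = 0.000437) and in A/J (-1.19 ± 0.20, adjusted p = 0.0137), and it was higher in A/J than BALB/cJ (1.12 ± 0.21, adjusted p = 0.0157). Cyp2c37 shared 21.1% of its windows with Cyp2c50, so their values are not fully separate. Cyp2c54, with 80.1 and 67.4 TPM in BALB/cJ and 82.7, 163 and 162 TPM in C57BL/6J, was lower in BALB/cJ only just beyond the fold limit (-1.01 ± 0.26, adjusted p = 0.0280). With 1 library left out, Cyp2c50 between BALB/cJ and C57BL/6J was kept throughout. Cyp2c37 was lost between A/J and C57BL/6J without any A/J or BALB/cJ library or C57BL/6J library 2 (adjusted p up to 0.209), and between BALB/cJ and C57BL/6J without BALB/cJ library 2 (0.0508). Cyp2c50 was lost between A/J and BALB/cJ without A/J library 2 or either BALB/cJ library (up to 0.123), and between A/J and C57BL/6J without either A/J library or C57BL/6J library 2 (up to 0.108). Cyp2c54 was lost without either BALB/cJ library or C57BL/6J library 2 or 3 (up to 0.177).

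Cyp2c29, Cyp2c67 and Cyp2c70 were instead highest in BALB/cJ. Cyp2c29, an epoxygenase induced through CAR, had 787 and 732 TPM in A/J, 1832 and 1965 TPM in BALB/cJ and 532, 910.2 and 1109 TPM in C57BL/6J. It was lower in A/J than BALB/cJ (-1.22 ± 0.26, adjusted p = 0.0252) and higher in BALB/cJ than C57BL/6J (1.04 ± 0.23, adjusted p = 0.0167). Cyp2c67 had 165 and 259 TPM in A/J, 330.4 and 306 TPM in BALB/cJ and 125, 128 and 138 TPM in C57BL/6J, and it was higher in BALB/cJ than C57BL/6J (1.15 ± 0.20, adjusted p = 0.00664). Cyp2c70, which makes muricholic bile acids in rodents, had 307 and 248 TPM in A/J, 619 and 565 TPM in BALB/cJ and 252, 284 and 392 TPM in C57BL/6J. BALB/cJ libraries were the highest for each of the 3 genes, but Cyp2c70 missed the fold limit against A/J (-1.0 ± 0.19, adjusted p = 0.0168) and against C57BL/6J (0.81 ± 0.17, adjusted p = 0.0138). Leaving out any A/J or BALB/cJ library or C57BL/6J library 2 ended the Cyp2c29 call for A/J against BALB/cJ (adjusted p up to 0.14), and the call for BALB/cJ against C57BL/6J was lost without either BALB/cJ library or C57BL/6J library 1 or 2 (up to 0.109). The Cyp2c67 call was lost without BALB/cJ library 1 (0.0605). Summed over the subfamily, Cyp2c levels were 1853 and 1867 TPM in A/J, 3062 and 3079 TPM in BALB/cJ, and 2030.3, 2616 and 2864 TPM in C57BL/6J, so A/J had the lowest sums although Cyp2c39 and Cyp2c38 were highest there.

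The remaining Cyp2c members were low or uncalled. Cyp2c68 had 49.4 and 70.2 TPM in A/J, 59.4 and 46.2 TPM in BALB/cJ and 35.3, 66.1 and 55.5 TPM in C57BL/6J, with overlapping libraries. Cyp2c55, known from mouse colon, lay under the test's limit and had 0.649 and 0.672 TPM in A/J, 1.07 and 1.04 TPM in BALB/cJ and 7.35, 9.84 and 4.28 TPM in C57BL/6J. Cyp2c40 was seen at 2.46, 5.27 and 3.88 TPM in C57BL/6J, and Cyp2c69 at 1.99, 3.28 and 1.59 TPM. Both had at most 5 reads in any A/J or BALB/cJ hepatocyte library, and 60.3% and 54.3% of their windows are shared, so no fold is given.

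Among Cyp2a and Cyp2b members, differences were called for Cyp2a4, Cyp2a22 and Cyp2b9, of which Cyp2a4 and Cyp2b9 are known as female-biased in mouse liver. Cyp2a4, a testosterone hydroxylase, had 392 and 319 TPM in A/J, 28.5 and 23.0 TPM in BALB/cJ and 7.61, 20.6 and 3.14 TPM in C57BL/6J. Every A/J library lay far above every library of the other strains. The difference was 3.88 ± 0.76 from BALB/cJ (adjusted p = 0.0227) and 5.03 ± 0.68 from C57BL/6J (adjusted p = 0.00746). By contrast the coumarin hydroxylase Cyp2a5, with the nearly identical promoter letters shown above, had 375 and 528 TPM in A/J, 346 and 400.5 TPM in BALB/cJ and 145, 345 and 506 TPM in C57BL/6J. The strains overlapped for Cyp2a5 and no contrast was called (A/J minus BALB/cJ 0.38 ± 0.45, A/J minus C57BL/6J 0.44 ± 0.41 and BALB/cJ minus C57BL/6J 0.06 ± 0.41, adjusted p = 0.636, 0.57 and 0.929). The pair has 36.1% of the windows of Cyp2a4 in common, so part of the Cyp2a4 reads could belong to Cyp2a5. Cyp2a22 had 20.5 and 12.1 TPM in A/J, 3.43 and 3.82 TPM in BALB/cJ and 0.351, 0.260 and 0.216 TPM in C57BL/6J. It was higher in A/J than BALB/cJ (2.26 ± 0.28, adjusted p = 0.00381) and than in C57BL/6J (5.87 ± 0.33, adjusted p = 8.46e-05), where 6, 8 and 6 reads were counted. The Cyp2a22 calls were kept with any 1 library left out. Cyp2a4 lost its call between A/J and BALB/cJ without any library of these strains or C57BL/6J library 1 (adjusted p up to 0.131), and between A/J and C57BL/6J without C57BL/6J library 1 (0.0706).

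Cyp2b9, female-biased in mouse liver, had 149 and 32.9 TPM in A/J, 0.210 and 0.595 TPM in BALB/cJ and 0.626, 6.33 and 1.58 TPM in C57BL/6J. The A/J libraries were the highest but differed widely from each other. The log2 difference was 8.0 ± 1.34 from BALB/cJ (adjusted p = 0.0154) and 4.86 ± 0.89 from C57BL/6J (adjusted p = 0.0254), with 7 and 13 reads in BALB/cJ. These calls were lost without either BALB/cJ library (up to 0.102), and without A/J library 1 or C57BL/6J library 1 or 3 (up to 0.111). Cyp2b13, a further female-biased copy, had 63 and 14 reads in A/J, 0 and 0 reads in BALB/cJ and 0, 0 and 1 reads in C57BL/6J. Cyp3a44, also female-biased, had 2.14 and 1.21 TPM in A/J, 0.057 and 0.088 TPM in BALB/cJ and 0, 0.185 and 0.082 TPM in C57BL/6J. These low copies were also seen mainly in A/J but lay under the 8 TPM limit. Other low copies ran the other way. Cyp2c40 and Cyp2c69 had means of 3.87 and 2.29 TPM in C57BL/6J hepatocytes, against 0.193 and 0.0725 TPM in A/J. Of the 9 female-biased liver P450 genes listed, 2 were tested between A/J and either other strain, and both (Cyp2a4 and Cyp2b9) were higher in A/J. Cyp2b9 was above 8 TPM in A/J alone, entered the test through that strain and so had to be higher there. The list as a whole was thus not tested. All hepatocyte mice were male by the study's methods. Cyp2b10, the standard CAR target, had 8.66 and 1.34 TPM in A/J, 25.0 and 29.7 TPM in BALB/cJ and 13.1, 8.64 and 3.38 TPM in C57BL/6J. Its A/J and BALB/cJ libraries did not overlap, as for 64.4% of all genes tested, and no difference was called (-2.41 ± 0.85, adjusted p = 0.123).

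In the Cyp3a subfamily, Cyp3a13 had 25.1 and 21.3 TPM in A/J, 31.4 and 26.1 TPM in BALB/cJ and 55.0, 76.6 and 74.8 TPM in C57BL/6J. It was lower than in C57BL/6J both in A/J (-1.60 ± 0.17, adjusted p = 0.00145) and in BALB/cJ (-1.39 ± 0.17, adjusted p = 0.00137), in each case with any 1 library left out. Cyp3a59 had 7.92 and 7.41 TPM in BALB/cJ and 18.1, 42.9 and 12.9 TPM in C57BL/6J (-1.83 ± 0.50, adjusted p = 0.0350), a call lost without either BALB/cJ library or C57BL/6J library 1 (up to 0.16). Cyp2j9, of the epoxygenase subfamily Cyp2j, had 10.1 and 12.2 TPM in A/J, 1.82 and 1.94 TPM in BALB/cJ and 6.58, 9.10 and 7.19 TPM in C57BL/6J. It was higher in A/J than BALB/cJ (2.67 ± 0.25, adjusted p = 0.000860), while Cyp2j5, at 230.2 and 217 TPM in A/J, 192 and 185 TPM in BALB/cJ and 297, 267 and 255 TPM in C57BL/6J, was not called, although its lower BALB/cJ level passed the adjusted threshold against C57BL/6J under the fold limit (-0.68 ± 0.15, adjusted p = 0.0160). Cyp2r1, the vitamin D hydroxylase, had 4.35 and 3.60 TPM in A/J, 4.34 and 2.84 TPM in BALB/cJ and 5.12, 9.37 and 10.7 TPM in C57BL/6J. The lower BALB/cJ level (-1.35 ± 0.33, adjusted p = 0.0220) was lost without either BALB/cJ library (up to 0.14). Cyp1a2, which metabolizes caffeine, had 319.7 and 414 TPM in A/J, 238 and 270.0 TPM in BALB/cJ and 315, 358 and 567 TPM in C57BL/6J, with a lower BALB/cJ level that passed the adjusted threshold against C57BL/6J but not the fold limit (-0.82 ± 0.24, adjusted p = 0.0400). The same held for Cyp2j6, lower than in C57BL/6J in A/J (-0.75 ± 0.12, adjusted p = 0.0115) and in BALB/cJ (-0.50 ± 0.12, adjusted p = 0.0202). No strain difference was called for Cyp2d13, Cyp2d22, Cyp2d40, Cyp2j6 or Cyp2u1, which were at 17.8 to 143 TPM. Cyp2g1, known from the olfactory mucosa, was below 6 TPM in every hepatocyte library.

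With 1 library left out, the number of members called was 4 to 10 between A/J and BALB/cJ, 6 to 10 between A/J and C57BL/6J and 5 to 10 between BALB/cJ and C57BL/6J. The lowest counts of 4 and 5 were reached without a BALB/cJ library (4 without library 1 and 4 without library 2 against A/J, 5 without either against C57BL/6J), and 5 members were called between A/J and BALB/cJ without A/J library 2. No share of all genes called under the same setting is given beside these counts. They therefore do not set members against other genes, and the same holds for the counts with 1 library or mouse left out below.

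The genes that serve or regulate P450 enzymes were compared in the same fits. None of the 9 electron and heme partners and none of the 14 tested of 19 listed regulators was called in any of the 3 contrasts by edgeR, with 1, 3 and 6 partners and 2, 1 and 2 regulators below an unadjusted p of 0.05. Por had 316 and 433 TPM in A/J, 187 and 231 TPM in BALB/cJ and 187, 257 and 240.0 TPM in C57BL/6J, and its A/J level passed the adjusted threshold against BALB/cJ below the fold limit (0.95 ± 0.22, adjusted p = 0.033). The receptor gene Nr1i3 had 47.3 and 86.4 TPM in A/J, 60.6 and 70.7 TPM in BALB/cJ and 24.5, 60.4 and 100.4 TPM in C57BL/6J, and Nr1i2 had 38.6 and 49.4 TPM in A/J, 32.7 and 36.2 TPM in BALB/cJ and 27.8, 33.3 and 29.7 TPM in C57BL/6J. The strains overlapped for Nr1i3. Of 10 tested pericentral genes 2, 2 and 4 were called in the 3 contrasts, each a Cyp2c member named above, and of 9 periportal genes 1, 2 and 0. The repressor Zhx2, which lay under the test's limit, had 7.87 and 6.04 TPM in A/J hepatocytes, 0.217 and 0 TPM in BALB/cJ and 7.48, 8.23 and 7.79 TPM in C57BL/6J.

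Members whose level was highest outside hepatocytes were Cyp2d22, Cyp1a1, Cyp1b1, Cyp2t4 and Cyp2s1. Cyp2d22, a Cyp2d gene also known from brain, had 119, 128, 101 and 122 TPM in A/J LSECs, 114, 99.7, 118 and 104 TPM in BALB/cJ LSECs and 229, 258, 245 and 253 TPM in C57BL/6J LSECs. In stellate cells it had 62.7, 69.0, 43.1 and 55.1 TPM in A/J, 65.3, 54.9, 55.3 and 47.0 TPM in BALB/cJ and 178, 211 and 205 TPM in C57BL/6J. C57BL/6J was the highest strain in both cell types without overlap, with a largest pairwise log2 difference of -1.16 in LSECs (BALB/cJ minus C57BL/6J, adjusted p = 7.59e-08) and -1.80 in stellate cells (adjusted p = 4.98e-06). Both calls, from 1 test over the 3 strains, were kept with any 1 library left out. In hepatocytes Cyp2d22 had 116 and 104 TPM in A/J, 109 and 105 TPM in BALB/cJ and 143, 124 and 133 TPM in C57BL/6J, where no contrast was called. In stellate cells Cyp2d22 was the 1 member called of 9 tested (against 14.6% of 9432 genes), and in LSECs it was 1 of 2 called of 15 tested (against 6.53% of 8880 genes). Stellate libraries also held LSEC markers at a sum of 1443 to 4105 TPM, against 7571 to 10174 TPM in LSECs. The part of LSEC or Kupffer cell RNA in the stellate values of Cyp2d22 was not tested.

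**Figure D3:**
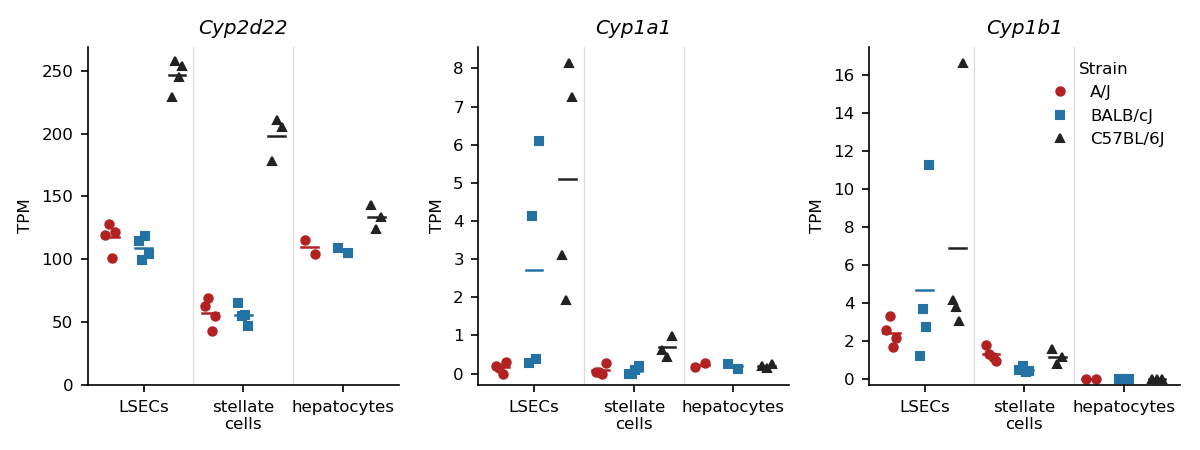
TPM of Cyp2d22, Cyp1a1 and Cyp1b1 in each library of LSECs, stellate cells and hepatocytes, by strain (points are libraries, bars are group means). Cyp2d22 is highest in the C57BL/6J libraries of LSECs and stellate cells, and Cyp1b1 is at 0 in all hepatocyte libraries.

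The Cyp1 members are AHR targets. Cyp1a1, which was below 0.3 TPM in every hepatocyte library, had 0.188, 0.158, 0 and 0.310 TPM in A/J LSECs, 0.268, 4.14, 0.388 and 6.09 TPM in BALB/cJ LSECs and 3.11, 1.94, 8.15 and 7.25 TPM in C57BL/6J LSECs. All A/J libraries lay below all C57BL/6J libraries, and BALB/cJ libraries ranged over both. Cyp1b1, an estradiol hydroxylase of tissues other than liver, had 2.59, 3.31, 1.68 and 2.18 TPM in A/J LSECs, 1.2, 3.68, 2.74 and 11.3 TPM in BALB/cJ LSECs and 4.16, 3.80, 3.05 and 16.7 TPM in C57BL/6J LSECs, and 0 in hepatocytes. Both lay under the test's limit. Cyp2t4 had 2.79, 0.827, 1.03 and 1.62 TPM in A/J LSECs, 1.96, 0.824, 1.52 and 0.891 TPM in BALB/cJ LSECs and 1.54, 1.2, 1.16 and 1.03 TPM in C57BL/6J LSECs. Its strains overlapped. Cyp2s1, known from epithelia and macrophages, was at 0 in all hepatocyte libraries and had 2.55, 2.00 and 2.21 TPM in C57BL/6J donor Kupffer cells from NSG hosts. In C57BL/6J BMDMs it had 0.446 and 0.347 TPM after KLA and 2.11 and 1.81 TPM with PBS. In BALB/cJ BMDMs it had 0.129 and 0.109 TPM after KLA and 0.645 and 0.63 TPM with PBS, and in A/J BMDMs 0.161 and 0.203 TPM after KLA and 0.304 and 0.598 TPM with PBS. KLA libraries lay below PBS libraries in each strain, at levels too low for the test. Cyp2r1 was also seen in Kupffer cells, at 1.44 and 1.57 TPM in A/J, 1.14 and 2.58 TPM in BALB/cJ and 5.37 and 5.13 TPM in C57BL/6J.

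Summed over members, hepatocyte libraries had 13576 to 19417 TPM, against 290.5 to 2448 TPM in LSECs, 98.8 to 556 TPM in stellate cells, 28.1 to 79.2 TPM in untreated Kupffer cells and 1.51 to 5.78 TPM in BMDMs, where Alb was 0. Sums in LSECs were highest in A/J libraries 1 and 2 and BALB/cJ library 1, which held the hepatocyte markers at a median of 5.20%, 5.62% and 9.31% of their hepatocyte level, against 0.865% in the LSEC library with the lowest value. Cyp2e1 had 259, 464, 53.0 and 77.2 TPM in A/J LSECs, 903, 31.4, 58.3 and 67.7 TPM in BALB/cJ LSECs and 84.0, 156, 49.7 and 73.3 TPM in C57BL/6J LSECs, and its highest values were in those same 3 libraries. Cyp2c39, the second member called in LSECs (adjusted p = 0.0283), had 15.2, 22.5, 1.97 and 2.54 TPM in A/J LSECs, 13.5, 1.17, 0.823 and 0.886 TPM in BALB/cJ LSECs and 0, 0, 0 and 0.152 TPM in C57BL/6J LSECs. By group means its order of strains was that of hepatocytes, and the call was lost without A/J library 1 or without any 1 C57BL/6J library (adjusted p up to 0.116). The part of hepatocyte RNA in these values was not tested. The count of members called in LSECs was 1 to 3 with 1 library left out (1 also without A/J library 2, where Cyp2c39 did not enter the test) and 3 without the 3 libraries named together.

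**Figure D4:**
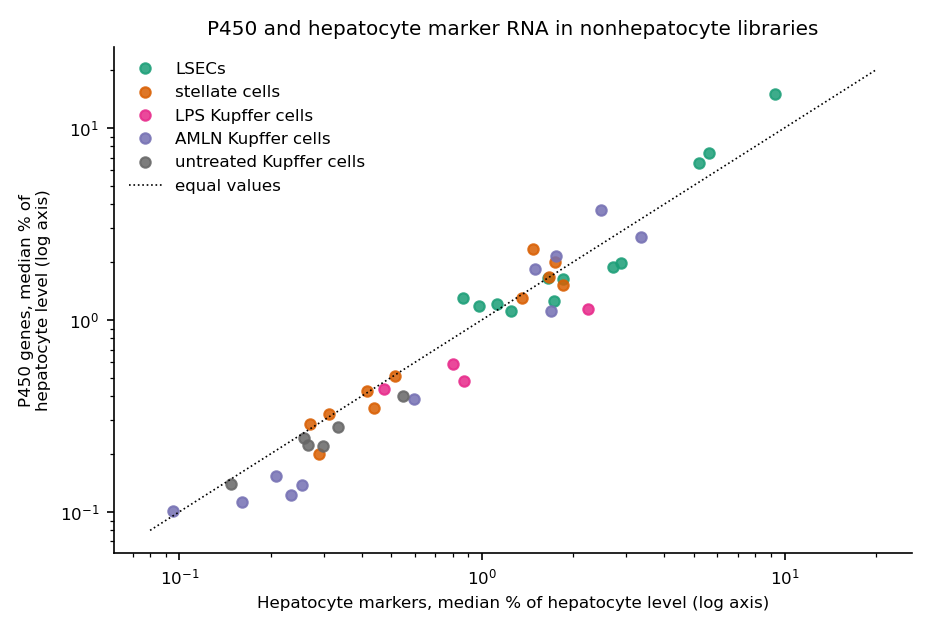
Each point is a library of LSECs, stellate cells or Kupffer cells (after LPS, on the AMLN diet or untreated), placed by the median level of the hepatocyte markers (horizontal) and of the members (vertical), both as a percentage of the hepatocyte level of the same strain on log axes, with a line of equal values. Libraries of BMDMs and of NSG-engrafted cells are not shown. The points shown lie along the line, with 3 LSEC libraries at marker medians of 5.20, 5.62 and 9.31%.

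In Kupffer cells the members were near the limit of the test, and those tested were abundant hepatocyte members. After LPS, 2 of 2 tested members were called in BALB/cJ, both higher (31.9% of 7754 genes were called and 15.7% were higher), and 4 of 4 in C57BL/6J, all higher (38.5% of 7809 genes were called and 19.1% were higher). Cyp2e1 had 23.5 and 33.6 TPM after LPS and 6.03 and 13.6 TPM untreated in BALB/cJ (1.99 ± 0.53, adjusted p = 0.0154). In C57BL/6J it had 22.7 and 46.1 TPM after LPS and 13.0 and 22.4 TPM untreated (1.56 ± 0.52, adjusted p = 0.0340). Cyp3a11 had 14.3 and 16.4 TPM after LPS and 3.03 and 6.23 TPM untreated in BALB/cJ (2.19 ± 0.79, adjusted p = 0.0466), and 18.4 and 50.8 TPM after LPS and 2.70 and 12.6 TPM untreated in C57BL/6J (2.79 ± 0.78, adjusted p = 0.0172). LPS libraries were above untreated libraries in each case. Of the called members, Cyp2e1 alone had untreated means above 8 TPM, while Cyp3a11, Cyp2f2 and Cyp2d9 entered the test through the LPS group and so had to be higher. Cyp2f2 and Cyp2d9 were higher in C57BL/6J (2.43 ± 0.62, adjusted p = 0.0109, and 1.40 ± 0.53, adjusted p = 0.0484), with 9.43 and 15.2 TPM after LPS and 1.48 and 5.46 TPM untreated for Cyp2f2, and 8.88 and 11.2 TPM after LPS and 3.35 and 8.09 TPM untreated for Cyp2d9. Of the hepatocyte markers, 5 of 11 tested were higher after LPS in BALB/cJ (median log2 difference 1.61) and 15 of 17 in C57BL/6J (median 2.33). Their summed level was 1728 and 2019 TPM after LPS and 2488 and 2347 TPM untreated in BALB/cJ, where the sum was thus lower after LPS, and 1734 and 2794 TPM after LPS and 1628 and 1778 TPM untreated in C57BL/6J. Their median share of the hepatocyte level was instead higher after LPS in BALB/cJ, at 0.474 and 0.799% against 0.148 and 0.334% untreated. Alb was higher there too, at 187 and 340 TPM against 77.5 and 161 TPM. Among the 17 markers in untreated BALB/cJ Kupffer cells, the highest mean share was 15.5%, against an upper quartile of 0.274%. The sum and the median therefore need not move together, and the lower sum does not show less hepatocyte RNA. In C57BL/6J the median share of these markers was 0.872 and 2.24% after LPS and 0.257 and 0.549% untreated. The part of hepatocyte RNA in the result was not tested. The counts ranged from 0 to 2 in BALB/cJ and from 0 to 4 in C57BL/6J with 1 library left out, with 0 in BALB/cJ without untreated library 1 or LPS library 2 and 1 without either other BALB/cJ library, and in C57BL/6J 1 without untreated library 1 and 0 without LPS library 2. The Cyp2d9 call was lost in 5 of the 8 cases, including without either BALB/cJ LPS library (adjusted p = 0.0739 each), and with the C57BL/6J libraries alone (0.0587).

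On the AMLN diet, 0 of 4 tested members were called in A/J (edgeR; 2 at an unadjusted p below 0.05, 1 called by DESeq2; 3.51% of 7930 genes), 1 of 12 in BALB/cJ (9 at an unadjusted p below 0.05, 7 called by DESeq2; 4.95% of 8236 genes) and 0 of 1 in C57BL/6J (0 at an unadjusted p below 0.05, 0 by DESeq2; 12.2% of 7857 genes). The shares of all genes are those called by edgeR, and none is given beside the other counts. The called member was Cyp2d22, with 9.02, 10.2 and 19.6 TPM on the diet and 1.60 and 1.52 TPM untreated in BALB/cJ (2.99 ± 0.70, adjusted p = 0.0180). The groups did not overlap, but the call was lost without either untreated BALB/cJ library or without BALB/cJ AMLN library 3 (adjusted p up to 0.204). In the same contrast 4 of 6 tested LSEC markers were higher (median log2 difference 4.03) and 3 of 5 stellate markers (median 3.53), with summed LSEC markers at 704, 542 and 2066 TPM on the diet and 159 and 158 TPM untreated. Cyp2d22 is highest in LSECs, and the part of these markers in its value was not tested. Cyp2e1 had 9.85, 235, 14.4 and 267 TPM in A/J on the diet and 17.4 and 30.9 TPM untreated, so 2 of the 4 diet libraries stood far above the others. In those 2 libraries the hepatocyte markers reached a median of 3.34% and 1.75% of the hepatocyte level, against 0.161% and 0.0955% in the other A/J diet libraries. The median log2 difference of the hepatocyte markers was 2.42 (A/J), 2.83 (BALB/cJ) and 0.77 (C57BL/6J), beside 2.38, 3.07 and 0.27 for the tested members. Their part in the result was not tested. With 1 library left out the counts were 0 to 1 in A/J (1 without A/J AMLN library 1 or 3) and 0 to 3 in BALB/cJ (2 without A/J AMLN library 2 and 3 without A/J AMLN library 1 or 3, which share the fit). Differences between strains in the LPS or diet effect were tested as interaction terms, and none passed the threshold for a member (smallest adjusted p = 0.0757, Cyp2d22 in BALB/cJ against C57BL/6J on the diet).

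Reads that span a sequence variant were deposited for each allele in the hybrids, which puts both alleles of a member in the same animal. In untreated CB6F1/J Kupffer cells 13 members held a mean of at least 10 such reads, and 1 was called (7.09% of 5583 genes). Cyp2c37 had 2.5, 3.5, 1 and 1 reads of the BALB/cJ allele and 46, 16, 24.5 and 10 reads of the C57BL/6J allele in the 4 mice, with the BALB/cJ allele lower in every mouse (log2 difference -3.48 ± 0.63, adjusted p = 0.000870). Both alleles come from 1 animal, and with the mouse as a block Cyp2c50 was called as well (-1.34 ± 0.32, adjusted p = 0.0399). Cyp2c50 had 24, 2.5, 4.5 and 4 reads of the BALB/cJ allele and 41, 9.5, 17 and 14.5 of the C57BL/6J allele. Both genes were also lower in BALB/cJ than C57BL/6J hepatocytes. Untreated C57BL/6J Kupffer libraries held 8 and 10 reads of Cyp2c37, against 491, 2569 and 2931 in C57BL/6J hepatocytes. The part of hepatocyte RNA in the allele reads, untreated or after LPS, was not tested. Cyp2c29 had 76.5, 37.5, 21.5 and 17.5 reads of the BALB/cJ allele and 48.5, 26.5, 15.5 and 13 of the C57BL/6J allele, a BALB/cJ share of 58.8 ± 1.66% (SD, n = 4) that was not called. Cyp3a11 had 48, 35, 23 and 9.5 reads of the BALB/cJ allele and 47, 55, 20 and 14 of the C57BL/6J allele, with no constant direction. With 1 mouse left out, 1 or 2 members were called, and the second, without mouse 1, was Cyp2c50.

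After LPS, 0 of 12 members with enough reads were called by edgeR (2 at an unadjusted p below 0.05, 6.02% of 4915 genes called), and DESeq2 called 1, Cyp2c37. Cyp2c37 had 11, 13, 3.5, 0 and 13 reads of the BALB/cJ allele and 40, 27, 14, 31.5 and 79 of the C57BL/6J allele in the 5 mice, again lower for BALB/cJ in each (log2 difference -2.18 ± 0.68, adjusted p = 0.0562). Cyp2c39 had 28, 23.5, 0, 13 and 14.5 reads of the BALB/cJ allele and 0, 9, 0, 3 and 1 of the C57BL/6J allele. The BALB/cJ allele had more reads in every mouse that had any. The columns of Cyp2j6 and Cyp2c70 were equal in every LPS mouse, as they were for 2.85% of the genes, and so do not separate the alleles. In untreated mice this held for Cyp2j6 alone of the members, and for 1.34% of the genes. Cyp2a12, Cyp2c38, Cyp2c54, Cyp2f2, Cyp2r1, Cyp3a13 and Cyp3a25 were not called where they held enough reads, nor was Cyp2c70 in untreated mice. The Cyp2c70 columns were equal in all untreated mice but 1 (summed reads of 31.5 for BALB/cJ and 30.5 for C57BL/6J). Those of Cyp2r1 summed to 44 and 45.5 reads in untreated mice. Columns so alike may not separate the alleles, so the lack of a call for these genes does not show allelic balance. Cyp2c23, Cyp2a4, Cyp2a5, Cyp2b9, Cyp2a22 and Cyp1a2 had 0 allele reads in these cells, so their strain differences could not be followed by allele. In CB6F1/J donor Kupffer cells from NSG hosts, where the surrounding liver is of another strain, Cyp2c37 had 58, 0 and 17 reads of the BALB/cJ allele and 3, 0 and 0 of the C57BL/6J allele, and no test was made.

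**Figure D5:**
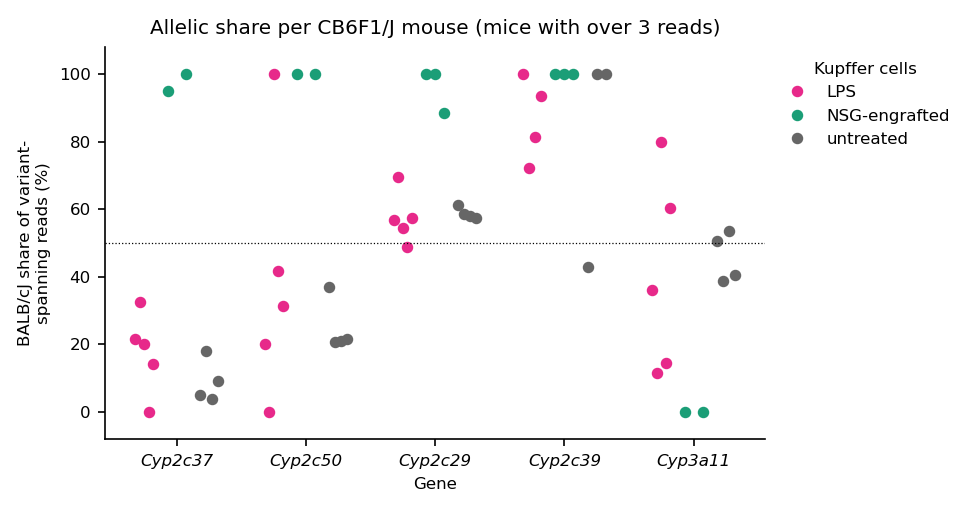
Share of BALB/cJ reads among allele reads of Cyp2c37, Cyp2c50, Cyp2c29, Cyp2c39 and Cyp3a11 in each CB6F1/J mouse with more than 3 such reads, for Kupffer cells after LPS, from NSG hosts and untreated (points are mice, the line marks 50%). Cyp2c37 lies below the line in untreated and LPS mice and above it in the NSG-engrafted group.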

How the data were processed

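RNA-seq of poly(A) RNA gave 85 libraries, of which 69 came from parental strains and 16 from hybrids. By the study's methods the authors aligned reads with STAR to strain-specific genomes, moved positions to the mouse reference mm10 and counted exon reads with HOMER. The A/J and BALB/cJ genomes were mm10 with known small variants put in, and larger structural variants were left out. The part of such variants in the strain differences of members was not tested. The deposited counts are whole reads per gene in parental libraries other than BMDMs, the deposited TPM values take transcript length into account and sum to 572785 to 595601 per hepatocyte library, and the deposited expected counts are not all whole: those of BMDMs include fractions and were not tested, and those of the hybrids are variant-spanning reads split by allele, rounded here for the tests. The versions of the upstream tools, the read length and the strand setting are not given in the sources used here. Of 20 tables, 8 were used, and 12 further tables of hybrid values (total counts and TPM, or other allelic read selections) were not.

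Members and gene lists were chosen with earlier results of these data known. Counts were tested with edgeR 4.0.16 (quasi-likelihood, TMM; R 4.3.3, limma 3.58.1). Genes entered with filterByExpr and a mean above 8 TPM in a compared group, or a mean of 10 allele reads per mouse. Calls needed a Benjamini-Hochberg adjusted p below 0.05 over all genes tested and a log2 difference above 1 in size. LSECs and stellate cells had 1 test over 3 strains. SE is the log2 difference divided by the root of the F statistic. The main allele test had no block, and a mouse block was an alternative. Both alleles come from 1 animal, and deviations of the paired columns from their allele means correlated at 0.50 to 0.67 untreated and 0.38 to 0.69 after LPS. Scripts were tested on simulated data. The text names the 10 members with the highest hepatocyte mean, called members whose libraries do not overlap, members highest outside hepatocytes, members called elsewhere or in the allele test, and members next to the limit, and gives the others by value. Cyp2a5, Cyp2b10, Cux2 and the members singled out in engrafted cells were chosen after their values were seen. Alternatives were DESeq2 1.42.0 (likelihood ratio test over 3 strains), another filter, no filter, a replicate block, the contrast's libraries alone and each library left out. Values that rest on fewer than 10 reads are dominated by counting error, and no fold is given against 0 reads.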

Additional observations from a re-analysis of the deposited data

Results flagged for a closer look

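Of 48 groups of values examined for 1 sample far from the others, 8 held one. The limit used gives about 1 in 20 by chance for independent values with a normal spread. Groups here share libraries and some rest on few reads, so the 8 cannot be set against that rate. Summed member TPM in BALB/cJ LSECs was 2448 in library 1, against 299 to 389 in the other 3. Cyp2c39, the retinoic acid hydroxylase, was at 13.5 TPM in the same library, against 0.823 to 1.17 TPM in the others. In C57BL/6J LSECs, library 4 stood apart for Cyp2c39 (0.152 TPM, 2 reads, against 0 in the others) and for the estradiol hydroxylase Cyp1b1 (16.7 TPM against 3.05 to 4.16). Summed member TPM in BALB/cJ stellate cells was 421 in library 1, against 121 to 151 in the other libraries. In C57BL/6J Kupffer cells on the AMLN diet it was 73.6 in library 2, against 29.8 to 36.8. Among untreated CB6F1/J mice, the BALB/cJ share of Cyp2c50 reads was 36.9% in mouse 1, against 20.8 to 21.6%, and that of Cyp2c70 reads was 54.5% in mouse 3, against 50% in the others. The Cyp2c70 columns of the other untreated mice were equal, which does not separate the alleles. Over all untreated mice they summed to 31.5 BALB/cJ and 30.5 C57BL/6J reads, so the flagged value is no evidence of an allele difference.

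A pair of values came from engrafted cells, which no comparison in the report tested. The median BALB/cJ share of member allele reads in CB6F1/J donor Kupffer cells from NSG hosts was 69.2% (77.0, 69.2 and 68.0% in the 3 mice), against 45.2 to 49.7% in untreated and 42.4 to 50% in LPS CB6F1/J mice. Cyp2c39 averaged 2.29 TPM in C57BL/6J donor cells from NSG hosts and was at 0 in C57BL/6J Kupffer cells. The host liver is neither donor strain, and its part in these values was not tested.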

How the results depend on the processing

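Counts of members called moved with the filter. With a mean of at least 1 TPM they were 13 (A/J and BALB/cJ hepatocytes), 14 (A/J and C57BL/6J), 6 in LSECs, 4 in stellate cells, 9 and 11 after LPS in BALB/cJ and C57BL/6J, and 3 and 2 on the diet in A/J and BALB/cJ. With no filter they were 7 in LSECs, 9 in stellate cells, 9 and 12 after LPS, and 4, 3 and 1 on the diet (A/J, then BALB/cJ, then C57BL/6J). A filter above 8 TPM in both strains, chosen after seeing the data, gave 5, 4 and 6 in the 3 hepatocyte contrasts. DESeq2 called 1 and 7 members on the diet in A/J and BALB/cJ and 1 allele after LPS. The libraries of the BALB/cJ diet contrast alone gave 4. At a mean of 30 allele reads 0 members were called in untreated hybrids. With 1 library left out the counts ranged over 4 to 10, 6 to 10 and 5 to 10 in the hepatocyte contrasts, 1 to 3 in LSECs, 0 to 2 and 0 to 4 after LPS, 0 to 1 and 0 to 3 on the diet, and 1 to 2 for untreated alleles. With a mouse block 2 alleles were called in untreated hybrids. These counts are given without the share of all genes called under the same setting. They show how the calls moved and not how members stood against other genes.

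Of 62 named results under 719 alternatives, 619 kept direction and call, 90 lost and 3 gained the call, and 7 changed sign, none of them called. The sign changes were Cyp2c38 alleles (0.03, but -0.015 by DESeq2 and -0.039 with the mouse block) and, with 1 mouse left out, Cyp3a11 (-0.38 to 0.020), Cyp2c54 (-0.27 to 0.071 untreated and -0.14 to 0.60 after LPS) and Cyp2r1 (-0.13 to 0.037). The cause was not tested. Replicate numbers did not pair the parental libraries (same-number correlations of -0.02 to 0.36 in hepatocytes). A replicate block gave 9, 8 and 8 calls in hepatocytes, without Cyp2b9 in either A/J contrast, Cyp2c37 in either C57BL/6J contrast or Cyp2c54, and 4 on the diet in BALB/cJ. Depth limited low members: Cyp2c40, Cyp2c69 and Cyp2b13 rest on few reads in most libraries, and 2 hepatocyte libraries in A/J and BALB/cJ leave their spread poorly known.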

Other observations

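Donor Kupffer cells from NSG hosts held P450 transcripts in other proportions than Kupffer cells of the donor strain in its own liver. In C57BL/6J donor cells Cyp2c39 had 1.84, 1.91 and 3.12 TPM (21, 25 and 39 reads), against 0 in both C57BL/6J Kupffer libraries. Cyp2b9 had 0.695, 0.984 and 2.85 TPM and Cyp2a4 1.14, 0.249 and 1.47 TPM in these donor cells, against 0 for both genes in C57BL/6J Kupffer cells. These genes were also low or near 0 in C57BL/6J hepatocytes. The male-biased Cyp2d9 ran the other way, with 0.296, 0.086 and 0.270 TPM in C57BL/6J donor cells and 3.35 and 8.09 TPM in C57BL/6J Kupffer cells. In BALB/cJ donor cells from the same kind of host, Cyp2c39 had 0, 0 and 0.064 TPM, Cyp2b9 0.094, 0 and 0 TPM and Cyp2d9 1.71, 0.668 and 2.66 TPM, while in BALB/cJ Kupffer cells they had 0.167 and 0.344 TPM, 0 and 0 TPM and 1.88 and 4.95 TPM. No test was made, and the genes were chosen after their values were seen.

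In CB6F1/J donor cells 11 members had more than 3 allele reads in total. For 6 of them over 80% were assigned to the BALB/cJ allele: Cyp2c39 (58.5 reads against 0 for C57BL/6J), Cyp2c50 (26.5 against 0), Cyp2c37 (75 against 3), Cyp2c29 (83 against 5.5), Cyp2c38 (31 against 4.5) and Cyp2c54 (28.5 against 7). All are Cyp2c genes on chromosome 19. Cyp3a11 on chromosome 5 had 0 BALB/cJ reads against 25 for C57BL/6J. The columns of Cyp2r1, Cyp2j6, Cyp3a25 and Cyp3a13 were equal. For Cyp2c37 and Cyp2c50 this was the opposite direction to that in untreated CB6F1/J mice. Whether the reads came from donor or host cells was not tested.

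The homeobox gene Cux2, a female-biased liver transcription factor, had 3.51 and 2.98 TPM in A/J hepatocytes, 0 and 0 TPM in BALB/cJ hepatocytes and 0.053, 0.147 and 0.049 TPM in C57BL/6J hepatocytes. It was thus seen mainly in the strain with the highest Cyp2a4 and Cyp2b9, at levels under the test's limit, and it was singled out after its values were seen.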
